A study of Mus musculus with 62 samples.

Results

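The genes described here are 10 genes of bile acid synthesis and its feedback control, found by their mouse Entrez identifiers among the 16206 genes of a liver count table. They are the hydroxylases Cyp7a1, Cyp8b1, Cyp27a1 and Cyp7b1, the conjugation enzymes Slc27a5 and Baat, the phospholipid transporter Abcb4, and the feedback genes Nr0b2, Fgfr4 and Klb. All 10 were listed in the liver and passed the filter on low counts there. Of the same 10 genes, 8 were listed among the 17653 genes of the prefrontal cortex table and 9 among the 17874 genes of the striatum table. RNA had been sequenced from female C57BL/6 mice, an inbred laboratory strain, that had taken the MARBLES mixture by mouth at 0.1, 1 or 6 mg/kg, or vehicle alone. The title of the series concerns polychlorinated biphenyls (PCBs), persistent chlorinated industrial chemicals. In the order vehicle, 0.1, 1 and 6 mg/kg, the groups held 4, 4, 6 and 6 liver libraries, and 4, 5, 6 and 6 libraries of each brain region. The labels give no transgene, deletion or further agent for any group. Age, the length of dosing and the hour of tissue collection are not given in the sources used here. Nothing in the labels states that the libraries of a group came from separate animals beyond the numbers in their titles, so p-values measure the spread between these libraries.

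Bile acids are made from cholesterol in hepatocytes. In the classical route CYP7A1 hydroxylates the sterol ring and sets the rate, and CYP8B1 adds the ring hydroxyl group that makes cholic acid. In the alternative route CYP27A1 oxidises the side chain and CYP7B1 hydroxylates the ring. SLC27A5 joins the finished acid to coenzyme A, and BAAT transfers it to an amino acid such as taurine. ABCB4 moves phosphatidylcholine into bile, where it forms mixed micelles with bile salts. Returning bile acids activate the nuclear receptor FXR (gene Nr1h4), which induces the repressor SHP (gene Nr0b2) in the liver and a fibroblast growth factor in the ileum that acts on hepatocytes through FGFR4 and its co-receptor beta-Klotho (gene Klb). Both arms lower transcription of Cyp7a1 and Cyp8b1. Cyp7a1 transcription also follows the time of day, in part through the clock output factor DBP.

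Promoters of 6 of the 10 genes (Abcb4, Cyp27a1, Cyp8b1, Fgfr4, Klb and Nr0b2) were matched in a RefSeq promoter table of build GRCm38.p6, and Baat, Cyp7a1, Cyp7b1 and Slc27a5 were not matched. The windows searched ran from 250 bases before to 50 after the start. Motifs searched on both strands were the NR5A element CAAGGNCA (bound by LRH-1, gene Nr5a2, through which SHP acts), the HNF4 element CAAAGTCCA, the E-box CACGTG and the D-box TTATGNAA of clock factors, and the TATA box TATAAA. Of 32851 promoter windows of the same 300 bases, 6.71% held the NR5A element, 0.475% the HNF4 element, 7.15% the E-box, 3.39% the D-box and 13.6% the TATA box. The 250 bases before the start are shown for Cyp8b1, a target of the feedback loop, and for Nr0b2, its repressor, with motif matches in capitals. Cyp27a1 is also shown, as it had the largest difference among the genes of the set tested in brain:
Cyp8b1 (chr9:121916306-121916555, minus strand): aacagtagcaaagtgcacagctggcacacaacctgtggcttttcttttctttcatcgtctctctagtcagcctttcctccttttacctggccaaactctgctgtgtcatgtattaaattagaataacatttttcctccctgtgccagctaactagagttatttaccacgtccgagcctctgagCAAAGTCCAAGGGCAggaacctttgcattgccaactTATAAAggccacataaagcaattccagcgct
Nr0b2 (chr4:133553126-133553375, plus strand): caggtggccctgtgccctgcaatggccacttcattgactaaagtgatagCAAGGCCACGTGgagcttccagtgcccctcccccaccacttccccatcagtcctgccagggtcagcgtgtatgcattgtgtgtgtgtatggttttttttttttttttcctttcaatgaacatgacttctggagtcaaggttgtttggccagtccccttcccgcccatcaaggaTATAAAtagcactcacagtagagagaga
Cyp27a1 (chr1:74713285-74713534, plus strand): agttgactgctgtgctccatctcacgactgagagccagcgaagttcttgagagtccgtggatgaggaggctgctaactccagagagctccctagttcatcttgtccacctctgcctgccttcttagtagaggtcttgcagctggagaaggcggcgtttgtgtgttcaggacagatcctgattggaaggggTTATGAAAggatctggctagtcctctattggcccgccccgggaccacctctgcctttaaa
In Cyp8b1 an HNF4 element at positions -67 to -59 from the start shared its last bases with an NR5A element at -60 to -53, and a TATA box lay at -31 to -26. In Nr0b2 an NR5A element at -201 to -194 overlapped an E-box at -195 to -190, and a TATA box lay at -28 to -23. Cyp27a1 held a D-box, with A at the free position N, at -60 to -53. Its printed bases lie within the gene span given below (chr1:74713148-74737897), so the start used is not the first base of that span. The windows of Abcb4, Fgfr4 and Klb held none of these letters. A match describes the sequence only.

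Library totals, in M counts, lay between 7.38 and 10.2 for liver, between 8.72 and 12.14 for prefrontal cortex and between 8.28 and 12.02 for striatum. The liver libraries carried hepatocyte transcripts: 6 marker genes (Alb, Apoa1, Ttr, Tat, Cps1 and Fgb) summed to between 76240 and 170500 CPM (counts per M reads of the library, with edgeR's TMM scaling between libraries), and 6 neuron markers to at most 62.5 CPM. The vehicle livers stood apart in clock genes. A clock index, log2 CPM of the output gene Dbp minus that of the core activator Arntl, was 2.04, 2.49, 5.19 and 5.45 in vehicle animals 3, 4, 7 and 8, and lay between 5.76 and 8.60 in the 16 exposed libraries with no overlap. Its mean was 3.81 higher at 6 mg/kg than in vehicle (two-sided exact permutation p 0.004762, the smallest that 210 splits of 6 against 4 can give). Since the groups did not overlap, that p restates the separation and adds no support to it. Clock state and exposure cannot be told apart in these livers. Each gene's difference at 6 mg/kg is therefore also given from 2 refits, one with the clock index as a covariate and one without vehicle animals 3 and 4, the latter chosen after the data were seen.

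Per kilobase of the longest GENCODE vM21 transcript, vehicle livers (n = 4) held most Slc27a5, at 355.6 ± 10.98 CPM per kb (SD), followed by Cyp27a1 at 249.2 ± 29.9. Cyp8b1 (114 ± 25.3) and Baat (109 ± 4.76) came next, and their ranges overlapped, since Cyp8b1 ran from 93.6 to 146 and Baat from 103 to 113 CPM per kb. Nr0b2 stood at 65.0 ± 7.35 and Abcb4 at 40.9 ± 10.7, again with overlapping ranges. Cyp7a1, the rate-limiting enzyme, stood at only 16.5 ± 10.8 CPM per kb and ran from 5.88 to 31.3, which overlapped Fgfr4 (14.5 ± 2.66), Cyp7b1 (8.03 ± 1.41) and Klb (6.03 ± 1.84). Both conjugation enzymes, Cyp27a1 and Cyp8b1 each exceeded the other 6 genes in every vehicle library, and the ring 7-hydroxylases and the receptor pair had the lowest means.

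**Figure D1:**
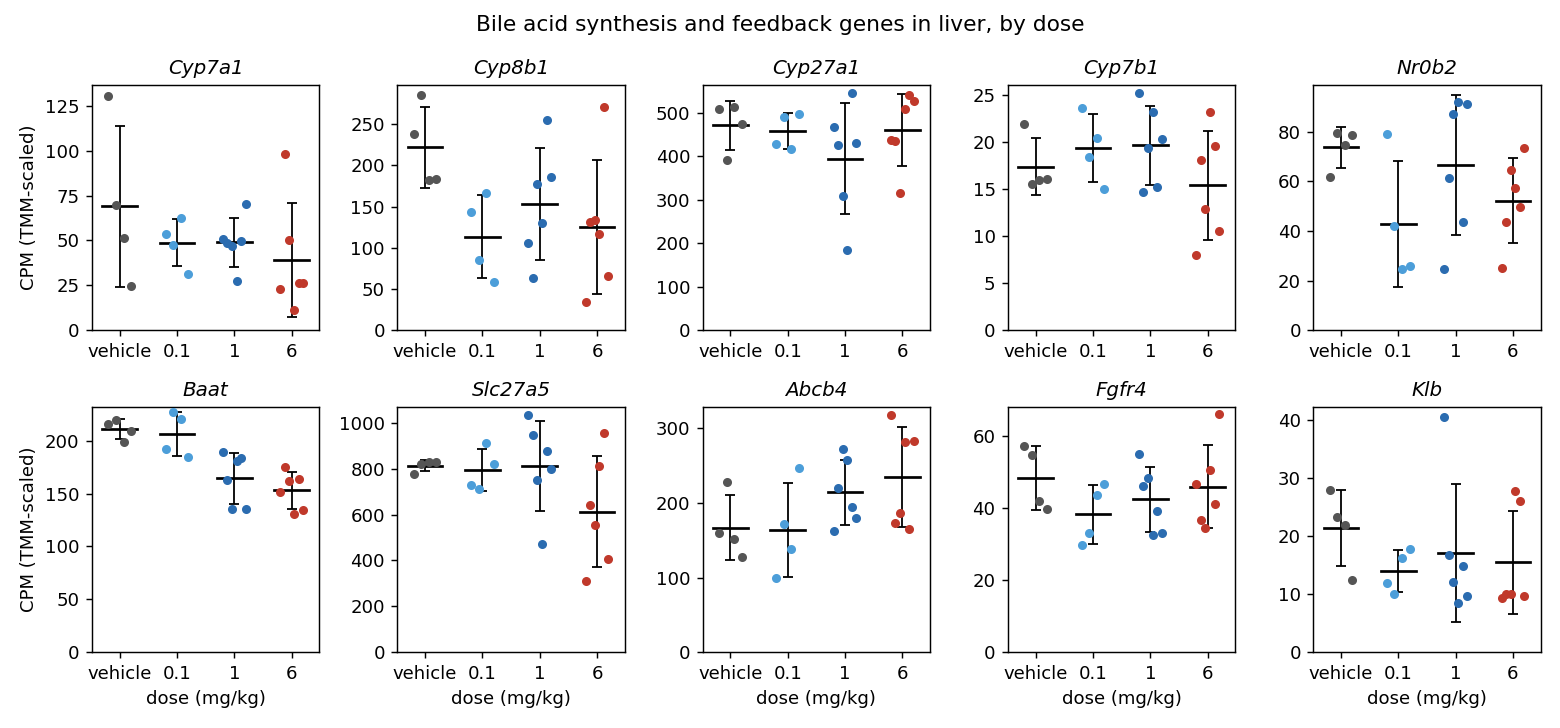
Liver levels of the 10 genes in TMM-scaled CPM (vertical axis, linear, from 0) by dose in mg/kg (horizontal axis). Each dot is 1 library, horizontal bars are group means and whiskers are SD (n = 4, 4, 6 and 6); for Baat, the libraries at 1 mg/kg (135 to 189 CPM) and at 6 mg/kg (130 to 175 CPM) lie below the 4 vehicle libraries (199 to 220 CPM), while the groups of the other genes overlap at those doses.

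At 6 mg/kg no gene of the set passed an edgeR adjusted p of 0.05 against vehicle, where 2.80% of the 12968 liver genes tested passed (1.80% higher and 0.995% lower). Of the 10 genes, 9 had a fold change below 0 on the log2 scale, with a median of -0.43, against a median of 0.02 and 48.1% below 0 over all genes tested. With the clock index as a covariate 4 of 10 were below 0 (median 0.08), without vehicle animals 3 and 4 it was 7 of 10 (median -0.12), and against 0.1 mg/kg in place of vehicle 4 of 10 (median 0.08). Baat was the single gene of the 10 with an unadjusted p under 0.05, which 24.2% of all genes had. The 6 hepatocyte markers had a median log2 fold change of -0.42 in the same comparison. Of them 5 were below 0, 3 were lower at an unadjusted p under 0.05 and 0 passed. Their sum ran from 76240 to 129000 CPM at 6 mg/kg and from 99410 to 114900 CPM in vehicle. Whether hepatocyte content moved the bile acid genes was not tested, and in bulk tissue fewer cells of a type cannot be told apart from less RNA per cell. Over dose rank (the slope per step from vehicle to 0.1, 1 and 6 mg/kg), Baat fell with dose and the other 9 slopes did not pass, where 4.81% of all genes passed, 2.85% higher and 1.96% lower, and 25.4% had an unadjusted p under 0.05.

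Baat, the enzyme that conjugates bile acids to an amino acid such as taurine (Entrez 12012, chr4:49489416-49507915), was at 216, 220, 199 and 209 CPM in vehicle animals 3, 4, 7 and 8. The 0.1 mg/kg libraries gave 193, 227, 221 and 185 CPM. The 1 mg/kg group ran from 135 to 189 CPM (median 172), and the 6 mg/kg group from 130 to 175 CPM (median 157). The groups at 1 and 6 mg/kg lay wholly below vehicle, whereas 0.1 mg/kg spanned it. Groups lay wholly below vehicle for 0.740% of all genes at 1 mg/kg and for 3.50% at 6 mg/kg. The slope over dose rank was -0.17 log2 units per step (SE 0.0450, 95% interval -0.27 to -0.08, edgeR adjusted p 0.0335). Against vehicle the log2 fold change was -0.46 at 6 mg/kg (SE 0.142, interval -0.76 to -0.17, edgeR adjusted p 0.0728) and -0.36 at 1 mg/kg (SE 0.143, edgeR adjusted p 0.551), and neither passed.

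The slope of Baat was the same size without vehicle animals 3 and 4, at -0.17 (SE 0.0559, edgeR adjusted p 0.173), and with the clock index as a covariate, at -0.19 (SE 0.0646, edgeR adjusted p 0.393), but did not pass in either fit. At 6 mg/kg these refits gave -0.49 with the clock covariate and -0.41 without the animals. The slope also missed the threshold over mg/kg in place of dose rank (edgeR adjusted p 0.0844) and in 8 of 20 fits that left out 1 library, namely vehicle animal 3, 4, 7 or 8, animal 28 at 0.1 mg/kg, or animal 52, 54 or 58 at 6 mg/kg, with adjusted p between 0.0251 and 0.0832 over the 20 fits. The Baat difference at 6 mg/kg passed with the Wald test of DESeq2 (adjusted p 0.0130) and without animal 56 (edgeR adjusted p 0.0465).

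Slc27a5, the ligase that activates bile acids before conjugation (Entrez 26459, chr7:12988346-12998192), was at 776.3, 822.1, 829.0 and 827.5 CPM in the vehicle libraries. The 6 mg/kg group ran from 312 to 955 CPM with a median of 597, so it spread widely and lay mostly below the narrow vehicle range. Animals 52 and 58 were lowest at 6 mg/kg, with 312 and 408 CPM. Slc27a5 had a log2 fold change of -0.41 at 6 mg/kg (interval -0.92 to 0.10, edgeR adjusted p 0.310), of -0.09 with the clock covariate and of -0.43 without vehicle animals 3 and 4. At 1 mg/kg Slc27a5 differed by -0.002 (interval -0.52 to 0.51), a direction that turned with median-ratio scaling (0.0004), and at 0.1 mg/kg by -0.04. The 2 conjugation steps thus had similar point estimates at 6 mg/kg, while at 1 mg/kg Baat was at -0.36 and Slc27a5 near 0; the difference between the genes was not tested.

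**Figure D2:**
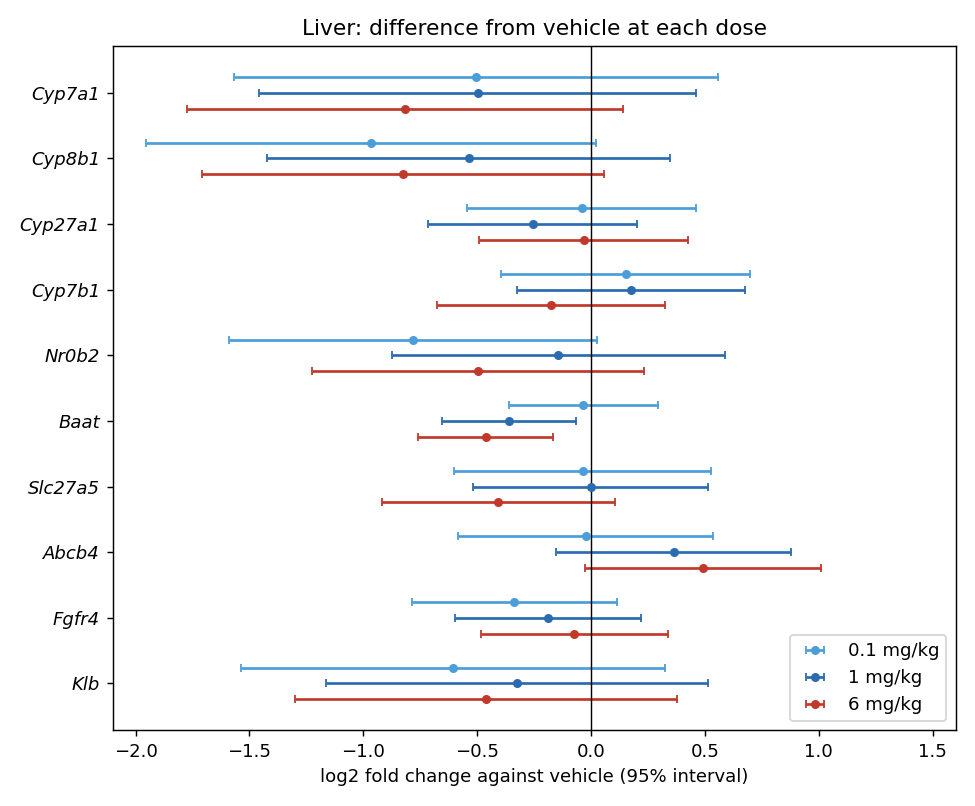
Log2 fold change of each gene against vehicle in the liver (horizontal axis) at 0.1, 1 and 6 mg/kg, as points with 95% intervals from the edgeR fit over 20 libraries. Intervals of Baat at 1 and 6 mg/kg lie below 0, and those of the other 9 genes include 0 at each dose.

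Cyp7a1, the rate-limiting enzyme of the classical route (Entrez 13122, chr4:6265612-6275632), was the most variable gene of the set between vehicle animals, at 131, 69.5, 51.4 and 24.5 CPM in animals 3, 4, 7 and 8. The 0.1 mg/kg libraries gave 53.4, 47.6, 62.4 and 31.3 CPM. The 1 mg/kg group ran from 27.2 to 70.2 CPM with a median of 49.2, and the 6 mg/kg group from 11.1 to 98.2 CPM with a median of 26.2. All groups overlapped, and animal 53 at 6 mg/kg exceeded 3 of the 4 vehicle libraries. Cyp7a1 differed from vehicle by -0.82 at 6 mg/kg on the log2 scale (SE 0.459, interval -1.78 to 0.14, edgeR adjusted p 0.274), -0.50 at 1 mg/kg (interval -1.46 to 0.46) and -0.50 at 0.1 mg/kg (interval -1.57 to 0.56). Without vehicle animals 3 and 4, whose clock index was lowest and whose Cyp7a1 was highest, these values were 0.04, 0.35 and 0.35. With the clock index as a covariate the value at 6 mg/kg was 0.02 (SE 0.866). Leaving out single libraries moved it between -1.34 (without animal 53) and -0.31 (without vehicle animal 3).

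Cyp8b1, which directs synthesis to cholic acid and whose promoter with adjoining HNF4 and NR5A letters is printed above (Entrez 13124, chr9:121914356-121916305), was at 238, 285, 183 and 183 CPM in vehicle. Cyp8b1 at 0.1 mg/kg was at 144, 85.0, 167 and 58.5 CPM, wholly below vehicle, as were 1.99% of all genes at that dose. The 1 mg/kg group ran from 62.8 to 255 CPM with a median of 154 and the 6 mg/kg group from 34.3 to 271 CPM with a median of 124, and both overlapped vehicle. The spread was widest at 6 mg/kg, where animal 52 held 34.3 and animal 56 held 271 CPM. The log2 fold change was -0.97 at 0.1 mg/kg (SE 0.475, interval -1.96 to 0.02, edgeR adjusted p 0.994), -0.54 at 1 mg/kg and -0.82 at 6 mg/kg (SE 0.424, interval -1.71 to 0.06, edgeR adjusted p 0.234). The estimates did not order by dose, since 6 mg/kg stood 0.14 above 0.1 mg/kg (SE 0.432). The interval of the fold at 6 mg/kg ran from 0.306 to 1.04. That log2 difference was -0.36 with the clock covariate (SE 0.691) and -0.54 without vehicle animals 3 and 4 (SE 0.545).

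In the alternative route, Cyp27a1 (Entrez 104086, chr1:74713148-74737897), the side-chain oxidase, was at 508, 391, 513 and 474 CPM in vehicle and from 317 to 540 CPM with a median of 473 at 6 mg/kg. The ranges overlapped, and the log2 fold change was -0.03 (interval -0.49 to 0.43, edgeR adjusted p 0.943). The lowest Cyp27a1 library was animal 46 at 1 mg/kg, with 186 CPM. Cyp7b1 (Entrez 13123, chr3:18071944-18243890), the ring hydroxylase of that route, was at 21.98, 15.59, 15.94 and 16.08 CPM in vehicle and from 8.04 to 23.2 CPM with a median of 15.5 at 6 mg/kg. Its log2 fold changes were -0.18 at 6 mg/kg (interval -0.68 to 0.33, edgeR adjusted p 0.687), 0.18 at 1 mg/kg and 0.15 at 0.1 mg/kg. The refits at 6 mg/kg turned Cyp27a1 to 0.15 and Cyp7b1 to 0.33 with the clock covariate, and gave -0.10 and -0.05 without vehicle animals 3 and 4. With all libraries and no covariate, the interval of both genes at 6 mg/kg excluded a 2-fold difference in either direction, with fold bounds of 0.711 and 1.34 for Cyp27a1 and of 0.626 and 1.25 for Cyp7b1. For Cyp7a1 and Cyp8b1 it did not, with lower bounds of 0.292 and 0.306.

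Nr0b2, the repressor SHP (Entrez 23957, chr4:133553376-133556686), was at 61.5, 79.6, 74.8 and 78.5 CPM in vehicle. At 0.1 mg/kg animal 23 stood at 78.9 CPM and the other 3 libraries at 41.9, 24.6 and 25.9 CPM, below every vehicle library. The 1 mg/kg group ran from 24.6 to 92.1 CPM with a median of 74.2, and the 6 mg/kg group from 25.1 to 73.4 CPM with a median of 53.4. The log2 fold change was -0.78 at 0.1 mg/kg (interval -1.59 to 0.03, unadjusted p 0.0576, edgeR adjusted p 0.994), -0.14 at 1 mg/kg and -0.50 at 6 mg/kg (interval -1.22 to 0.23, edgeR adjusted p 0.389). Without animal 23 the value at 0.1 mg/kg was -1.25 (edgeR adjusted p 0.806). The refits at 6 mg/kg gave -0.74 with the clock covariate and -0.56 without vehicle animals 3 and 4. Against 0.1 mg/kg in place of vehicle, the 6 mg/kg value was 0.29 for Nr0b2 and 0.14 for Cyp8b1. The Nr0b2 value at 1 mg/kg was 0.03 without animal 41. Comparisons of the 3 doses share their vehicle libraries, so equal signs across doses are not independent of each other.

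Of the receptor pair, Fgfr4 (Entrez 14186, chr13:55152818-55168759) was at 57.0, 54.5, 41.8 and 39.5 CPM in vehicle and from 34.3 to 66.1 CPM with a median of 43.8 at 6 mg/kg, with a log2 fold change of -0.07 (interval -0.48 to 0.34, edgeR adjusted p 0.851). Fgfr4 turned to 0.31 with the clock covariate and to 0.17 without vehicle animals 3 and 4. Its slope over dose rank was -0.001 and turned sign with median-ratio scaling (0.001). Klb (Entrez 83379, chr5:65348411-65386957), the co-receptor, was at 27.9, 23.2, 21.9 and 12.4 CPM in vehicle. At 6 mg/kg, 4 of 6 Klb libraries lay between 9.40 and 10.1 CPM and animals 55 and 56 at 27.77 and 26 CPM, within the vehicle range. Klb had a log2 fold change of -0.46 (interval -1.30 to 0.38, edgeR adjusted p 0.4995), and with the clock index as a covariate it was 0.80 (SE 0.522) and without vehicle animals 3 and 4 it was -0.14 (SE 0.533). Animal 58, at 9.61 CPM one of the low Klb libraries, held the most Fgfr4 at that dose.

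Abcb4, the canalicular flippase for phosphatidylcholine (Entrez 18670, chr5:8893614-8959226), was the gene of the set above 0 at 6 mg/kg with all libraries and no covariate. It was at 160, 229, 152 and 127 CPM in vehicle and from 165 to 318 CPM with a median of 234 at 6 mg/kg. The groups overlapped through vehicle animal 4. Abcb4 had a log2 fold change of 0.49 (SE 0.251, interval -0.03 to 1.01, edgeR adjusted p 0.229), and its slope over dose rank was 0.19 per step (SE 0.0761, interval 0.03 to 0.34, edgeR adjusted p 0.130), so neither passed. In the refits the difference at 6 mg/kg was 0.68 with the clock covariate (edgeR adjusted p 0.9995) and 0.75 without vehicle animals 3 and 4 (edgeR adjusted p 0.504).

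**Figure D3:**
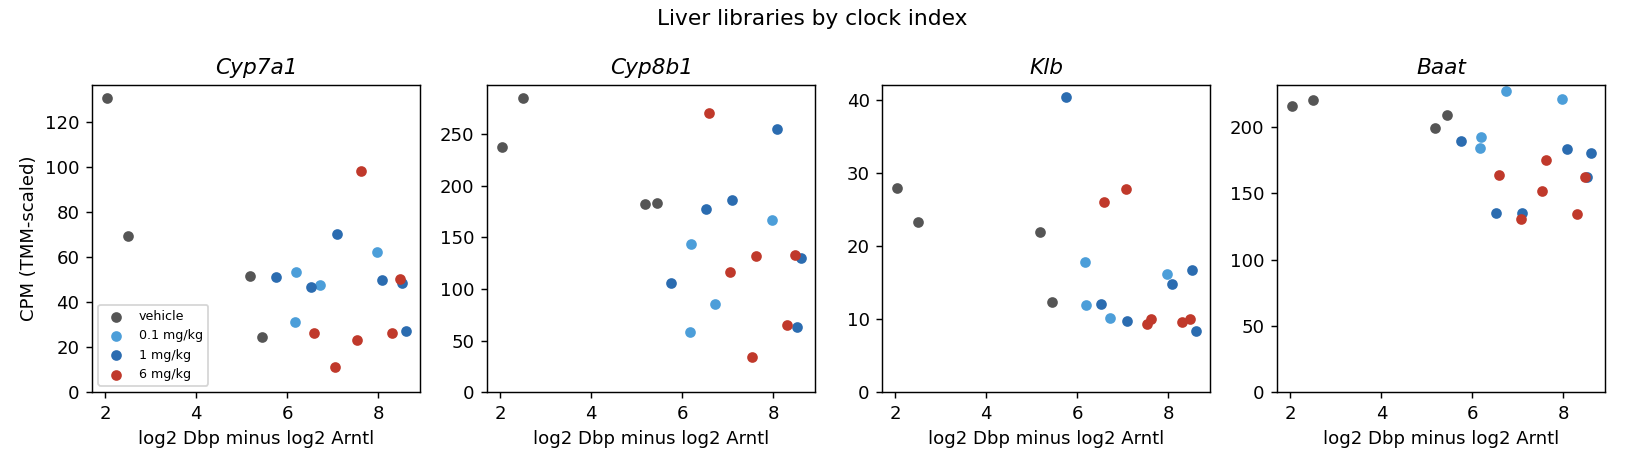
Levels of Cyp7a1, Cyp8b1, Klb and Baat in TMM-scaled CPM (vertical axes, from 0) against the clock index in log2 units (Dbp minus Arntl, horizontal axes), with 1 dot per liver library coloured by dose. Vehicle animals 3 and 4 lie at an index of 2.04 and 2.49, and the 16 exposed libraries lie between 5.76 and 8.60.

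At 1 mg/kg no liver gene passed over the whole table (0% of 12968, with 8.44% at an unadjusted p under 0.05). Of the 10 genes, 8 had a log2 fold change below 0 (median -0.22), beside 47.7% of all genes tested (median 0.02). The 0.1 mg/kg comparison called 0.0154% of all genes (4.10% at an unadjusted p under 0.05), none of them in the set. There 9 of the 10 were below 0 (median -0.19), beside 50.2% of all genes tested (median 0). With the clock index as a covariate 4 of 10 were below 0 at either dose (medians 0.22 and, for the lowest dose, 0.11), and without vehicle animals 3 and 4 it was 6 of 10 (medians -0.02 and -0.07). DESeq2's Wald test called 24 liver genes at 1 mg/kg and 0 of the 10. The 3 comparisons share their vehicle libraries, so these counts are not independent of each other.

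Among 18 other enzymes of bile acid synthesis, 17 were tested, 0 passed at 6 mg/kg by edgeR (6 had an unadjusted p under 0.05, which 24.2% of all genes had, and DESeq2 called Cyp39a1 and Cyp2c70 of those named here), and 2 fell with dose, as did 1.96% of all genes. Cyp39a1, a 7-hydroxylase of oxysterols, was at 64.0, 59.8, 56.1 and 28.2 CPM in vehicle and from 9.36 to 32.5 CPM with a median of 11.9 at 6 mg/kg. The 6 mg/kg libraries overlapped vehicle through animal 8. Its slope was -0.52 per step (SE 0.133, edgeR adjusted p 0.0324), and its log2 fold change at 6 mg/kg was -1.53 (edgeR adjusted p 0.0541). Cyp2c70, which makes the muricholic acids of mice, averaged 596 ± 118 CPM (SD, n = 4) in vehicle, then with rising dose 480 ± 57.5 (n = 4), 403 ± 171 (n = 6) and 277 ± 156 CPM (n = 6). Its slope was -0.36 per step (SE 0.106, edgeR adjusted p 0.0495), and it passed in 3 of 20 fits that left out 1 library (those without animal 41, 55 or 56). Cyp39a1 passed in 13 of the 20, missing the threshold without vehicle animal 3, 4 or 7 or without animal 52, 53, 54 or 58, with adjusted p up to 0.0817.

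Of 13 hepatocyte transporters of bile acids and sterols, 13 were tested, and 2 rose both at 6 mg/kg and with dose, where 1.80% and 2.85% of all genes rose. Abcc3, the basolateral exporter of conjugated organic anions, was at 124, 111, 98.0 and 96.8 CPM in vehicle and from 144 to 321 CPM with a median of 244 at 6 mg/kg, with no overlap. The log2 difference of Abcc3 was 1.07 (SE 0.238, edgeR adjusted p 0.0244), and 3.26% of all genes lay wholly above vehicle at this dose. Abcg5, a partner in the sterol exporter of the canalicular membrane, lay between 60.9 and 136 CPM among vehicle libraries and between 129 and 290 CPM among those given the highest dose, which overlapped. The fitted log2 difference of Abcg5 was 1.06 (SE 0.273, edgeR adjusted p 0.0413). Their slopes over dose rank were 0.33 and 0.34 per step (edgeR adjusted p 0.0213 and 0.0251). The Abcc3 slope missed the threshold without animal 58 (0.0573), and the Abcg5 slope without vehicle animal 3 or 4 or without animal 52 or 58 (up to 0.0725). Abcc3 at 6 mg/kg missed the threshold without vehicle animal 3, 4, 7 or 8 or without animal 52 or 58 (adjusted p up to 0.0944), and Abcg5 without vehicle animal 3, 4 or 7 or without animal 52, 53, 54 or 58 (adjusted p up to 0.157).

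Of 22 regulators of the pathway, 20 were tested, and 2 rose at 6 mg/kg and 3 rose with dose, beside 1.80% and 2.85% of all genes. Mafg, a small MAF protein described as a repressor of Cyp8b1 and Cyp7b1 downstream of FXR, was at 48.9, 36.3, 59.0 and 53.2 CPM in vehicle and at 81.8, 80.9, 72.6 and 88.6 CPM at 0.1 mg/kg. That lower dose lay wholly above vehicle, as did 2.14% of all genes, but the log2 difference of 0.71 did not pass (SE 0.165, edgeR adjusted p 0.386). The highest dose gave 87.1 to 124 CPM with a median of 92.4, wholly above vehicle. Its log2 fold change at 6 mg/kg was 0.98 (SE 0.155, edgeR adjusted p 0.00592), and its slope was 0.27 per step (edgeR adjusted p 0.0156). Nr1i2, the xenobiotic receptor PXR, rose at 6 mg/kg by 0.71 (SE 0.187, edgeR adjusted p 0.0441) and with dose by 0.24 per step (edgeR adjusted p 0.0229). Gps2, a subunit of a corepressor complex, rose with dose by 0.24 per step (edgeR adjusted p 0.0488). Nr1h4, the receptor FXR itself, was at 101, 116, 102 and 112 CPM in vehicle and from 73.9 to 222 CPM with a median of 150 at 6 mg/kg, a difference of 0.43 log2 units that did not pass (SE 0.236, edgeR adjusted p 0.261) and was 0.27 without animal 52.

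Of those regulator calls, Mafg missed the threshold at 6 mg/kg without vehicle animal 4 (edgeR adjusted p 0.0514) and in the slope without vehicle animal 3 (0.0539). Nr1i2 passed at 6 mg/kg in 2 of 10 fits that left out 1 library, those without animal 55 or 56, and its slope was lost without vehicle animal 3 or without animal 52 or 58. The Gps2 slope passed in 4 of 20 such fits (adjusted p from 0.0172 to 0.122).

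**Figure D4:**
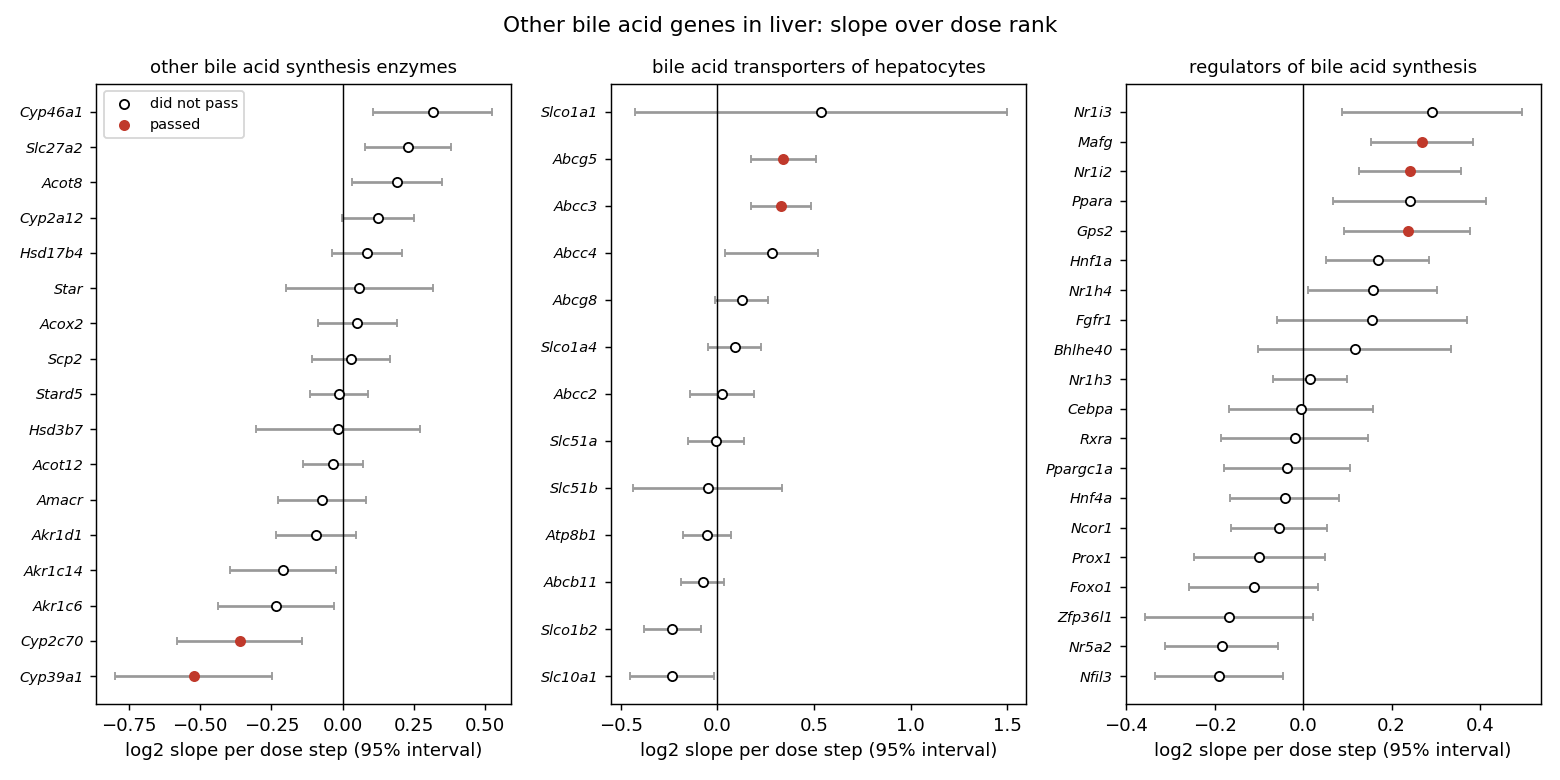
Slopes over dose rank in the liver, in log2 units per dose step (horizontal axis, with 95% intervals), for the other synthesis enzymes, hepatocyte transporters and regulators tested. Filled points passed an edgeR adjusted p of 0.05: Cyp39a1 and Cyp2c70 below 0, and Abcc3, Abcg5, Mafg, Nr1i2 and Gps2 above 0.

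Of 13 clock genes, 13 were tested, and at 6 mg/kg 4 rose and 1 fell, where 1.80% of all genes rose and 0.995% fell. The output gene Dbp was at 41.5 to 181 CPM in vehicle and 279 to 368 CPM at 6 mg/kg, higher by 1.68 log2 units (SE 0.321, edgeR adjusted p 0.0134). Its relative Tef rose by 1.42 and the period gene Per3 by 2.09 (edgeR adjusted p 0.0130 and 0.0134). Ciart, a clock repressor named outside the rule once its values had been seen, also rose, by 2.88 (edgeR adjusted p 0.0248). Its call was not refitted, so its dependence on vehicle animals 3 and 4 or on the clock index was not tested. Arntl, the core activator, was at 9.88, 7.75, 3.38 and 3.93 CPM in vehicle and 0.678 to 2.91 CPM at 6 mg/kg, on 5 to 30 counts per library there. Arntl thus fell, with a log2 difference of -1.98 (SE 0.480, edgeR adjusted p 0.0333). Dbp, Tef and Per3 missed the threshold at 6 mg/kg without vehicle animal 3 or 4 (adjusted p up to 0.0676), and Arntl without either or without animal 52, 53, 54 or 58 (up to 0.141). With dose, Dbp, Tef and Per3 rose and Arntl fell (slopes 0.44, 0.36, 0.51 and -0.66 per step, edgeR adjusted p 0.0457, 0.0382, 0.0486 and 0.0213). Those slopes passed in 8 of 20 fits that left out 1 library for Dbp, 12 for Tef, 7 for Per3 and 17 for Arntl, and vehicle animals 3 and 4 were among the libraries whose removal ended the call of each.

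For the genes outside the set that the naming rule covers, which leaves out Ciart, 19 calls were refitted (8 at 6 mg/kg and 11 slopes). None of the 19 passed with the clock index as a covariate (edgeR adjusted p 0.298 to 0.9995) or without vehicle animals 3 and 4 (0.116 to 0.525), and each passed with DESeq2's Wald test. Over all genes, the clock covariate left 0 calls of 12968 genes at 6 mg/kg and 3 over dose rank. Leaving out those animals left 0 and 8 calls of 13521 genes. The loss for Dbp and Arntl with the covariate was built in, since they make up the index. The sizes differed between genes. Abcc3 at 6 mg/kg was as large in both refits, at 1.24 and 1.22 (edgeR adjusted p 0.9995 and 0.405), and Nr1i2 was at 0.48 and 0.75. Mafg was at 0.68 and 0.79, and Abcg5 at 0.21 and 0.65. The slopes of Cyp39a1 were -0.36 and -0.49 per step, those of Cyp2c70 -0.25 and -0.40, and those of Gps2 0.20 and 0.23. Of the clock genes at 6 mg/kg, Dbp was at 0.48 and 1.03, Tef at 0.52 and 1.07, Per3 at 0.71 and 1.39, and Arntl, which enters the index with Dbp, at 0.53 and -1.20. Of 5 Kupffer cell markers (Clec4f, Cd5l, Adgre1, Vsig4 and Timd4), 1 rose at 6 mg/kg (Clec4f, edgeR adjusted p 0.0333) and 2 rose over dose rank (Clec4f and Timd4, both named after their values were seen), beside 1.80% and 2.85% of all genes, and the others did not pass. None was at 0, and their sum ran from 93.5 to 161 CPM in vehicle and from 129 to 279 CPM at 6 mg/kg. No marker of cholangiocytes, stellate cells or liver endothelium passed. The part of these markers in the results on bile acid genes was not tested.

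Whether the feedback genes and their targets varied together between animals was examined over 20 liver libraries, in log2 CPM centred on each dose group, for 6 pairs. Nr0b2 and Cyp7a1 had a Pearson r of -0.06 (permutation p 0.788, adjusted over the 6 pairs 0.788) and a Spearman rho of -0.08 (permutation p 0.731). Nr0b2 and Cyp8b1 had an r of 0.28 (permutation p 0.225, adjusted 0.384) and a rho of 0.20 (permutation p 0.406). Neither r differed from 0 beyond the spread between libraries, and mRNA levels alone cannot show whether SHP repressed either gene. Mafg had an r of -0.23 with Cyp8b1 (permutation p 0.320, adjusted 0.384, rho -0.36, permutation p 0.116) and of -0.30 with Cyp7b1 (permutation p 0.203, adjusted 0.384, rho -0.42, permutation p 0.0642). Cyp7a1 and Cyp8b1 had an r of 0.28 (permutation p 0.222, adjusted 0.384, rho 0.42, permutation p 0.0672), and the clock index and Cyp7a1 an r of -0.24 (permutation p 0.300, adjusted 0.384, rho -0.20, permutation p 0.400). No pair passed. Without the 2 libraries farthest from the median of the first measure, r for the pairs in the same order was -0.14, -0.02, -0.10, -0.31, 0.35 and 0.05.

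The genes whose log2 CPM most resembled that of a member over the 20 liver libraries were taken from 7664 genes with a mean of at least 10 CPM, as a description that shares libraries, scaling and dose groups. For Cyp7a1 they were Rrn3, Shb and Foxk2, with r of 0.742, 0.737 and 0.728. For Cyp8b1 they were Prxl2a, Coq8a and Selenbp1, with r of 0.858, 0.844 and 0.843. For Nr0b2 they were Fbxo6, Mrap and Cox14, with r of 0.761, 0.745 and 0.743. No other gene of the set was among them.

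In brain, bile acid conjugation and cholic acid synthesis transcripts were near the floor and 3 genes of the set were measurable. Cyp7a1 was not listed in either region and Nr0b2 not in the prefrontal cortex. Baat, Cyp8b1, Fgfr4, Klb and Slc27a5 had at most 10 counts in any prefrontal cortex library and 8 in any striatum library, and Nr0b2 at most 7 in the striatum, so they were left out by the filter. These levels were at most 1.12 CPM, against 12.4 CPM or more for the same genes in vehicle liver. Cyp27a1, Cyp7b1 and Abcb4 were tested. Cyp7b1, which in brain hydroxylates oxysterols and neurosteroids, had the highest median of the 3 in both regions, at 10.1 CPM over the 21 prefrontal cortex libraries and 9.36 CPM over the 21 striatum libraries, where the vehicle livers held 15.59 to 21.98 CPM. The liver and brain tables were scaled separately, so these levels are side by side only.

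Cyp27a1 in the prefrontal cortex was at 1.64, 1.26, 2.81 and 3.08 CPM in vehicle animals 3, 4, 7 and 8, on 12 to 27 counts. The 0.1 mg/kg libraries gave 1.63, 3.34, 3.49, 5.74 and 3.26 CPM. Those given 1 mg/kg ran from 2.82 to 4.57 CPM (median 3.63), and those given 6 mg/kg from 3.25 to 5.24 CPM (median 4.26), on 32 to 51 counts. The 6 mg/kg group lay wholly above vehicle, as did 1.19% of the 14838 genes tested there. Its log2 difference was 0.96 (SE 0.283, interval 0.38 to 1.55, unadjusted p 0.00224, edgeR adjusted p 0.312), so it did not pass, against a background of 0% passing and 9.27% at an unadjusted p under 0.05. The lowest vehicle libraries were animals 3 and 4, whose livers had the lowest clock index. Their cortex held 45.4 and 42.6 CPM of Arntl against 34.9 and 33.1 CPM in animals 7 and 8. At 6 mg/kg cortical Arntl ran from 32.6 CPM in animal 55 to 44.5 CPM in animal 52, which held 4.03 and 5.24 CPM of Cyp27a1. Whether clock state bears on cortical Cyp27a1 was not tested. Without vehicle animals 3 and 4 the Cyp27a1 difference was 0.53 (SE 0.328, edgeR adjusted p 0.698). In the striatum Cyp27a1 was at 5.73, 4.34, 6.62 and 5.19 CPM in vehicle and from 6.03 to 11.2 CPM with a median of 7.76 at 6 mg/kg, with overlap. There the log2 fold change was 0.56 (SE 0.255, interval 0.03 to 1.09, unadjusted p 0.0377, edgeR adjusted p 0.292) and 0.45 without vehicle animals 3 and 4 (SE 0.331), against a background over 15118 genes of 0% passing and 15.7% at an unadjusted p under 0.05. DESeq2 called 25 prefrontal cortex genes and 31 striatum genes, none of the 3 among them.

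Cyp7b1 differed at 6 mg/kg by 0.13 in prefrontal cortex (interval -0.18 to 0.44) and by -0.13 in striatum (interval -0.48 to 0.22), and Abcb4 by -0.12 (interval -0.52 to 0.28) and -0.19 (interval -0.65 to 0.28), with edgeR adjusted p between 0.694 and 0.895. All 4 intervals exclude a 2-fold difference. Leaving out 1 library moved Cyp7b1 between 0.04 (without vehicle animal 8) and 0.23 (vehicle animal 7) in prefrontal cortex and between -0.21 (animal 54) and -0.05 (animal 56) in striatum. It moved Abcb4 between -0.23 (animal 52) and -0.04 (vehicle animal 4) in prefrontal cortex, and between -0.37 (vehicle animal 8) and 0.07 (vehicle animal 3) in striatum. Without both vehicle animals 3 and 4, Abcb4 turned to 0.05 in prefrontal cortex and 0.25 in striatum, and Cyp7b1 was at 0.14 and -0.004. Summed microglia markers ran from 224 to 235 CPM in vehicle and from 221 to 243 CPM at 6 mg/kg in the prefrontal cortex, and summed oligodendrocyte markers from 2169 to 3252 and from 2931 to 3460 CPM. In the striatum the microglia sum ran from 230 to 289 CPM in vehicle and from 244 to 327 CPM at 6 mg/kg, and the oligodendrocyte sum from 4165 to 6293 and from 6260 to 8786 CPM. All 5 oligodendrocyte markers had a log2 fold change above 0 in both regions, with a median of 0.24 in prefrontal cortex and 0.27 in striatum. Of 6 neuron markers, 6 were below 0 in the striatum (median -0.20, 1 lower at an unadjusted p under 0.05) and 4 in the prefrontal cortex (median -0.08, 2 lower). The 5 choroid plexus markers were above 0 in the striatum as well, with a median of 1.15 and sums of 35.9 to 690 CPM in vehicle and 28.4 to 2598 CPM at 6 mg/kg. No marker on these lists passed in either region, and none of the microglia and oligodendrocyte markers was at 0 in every library of a group. The part of these cell types in the Cyp27a1 difference was not tested.

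**Figure D5:**
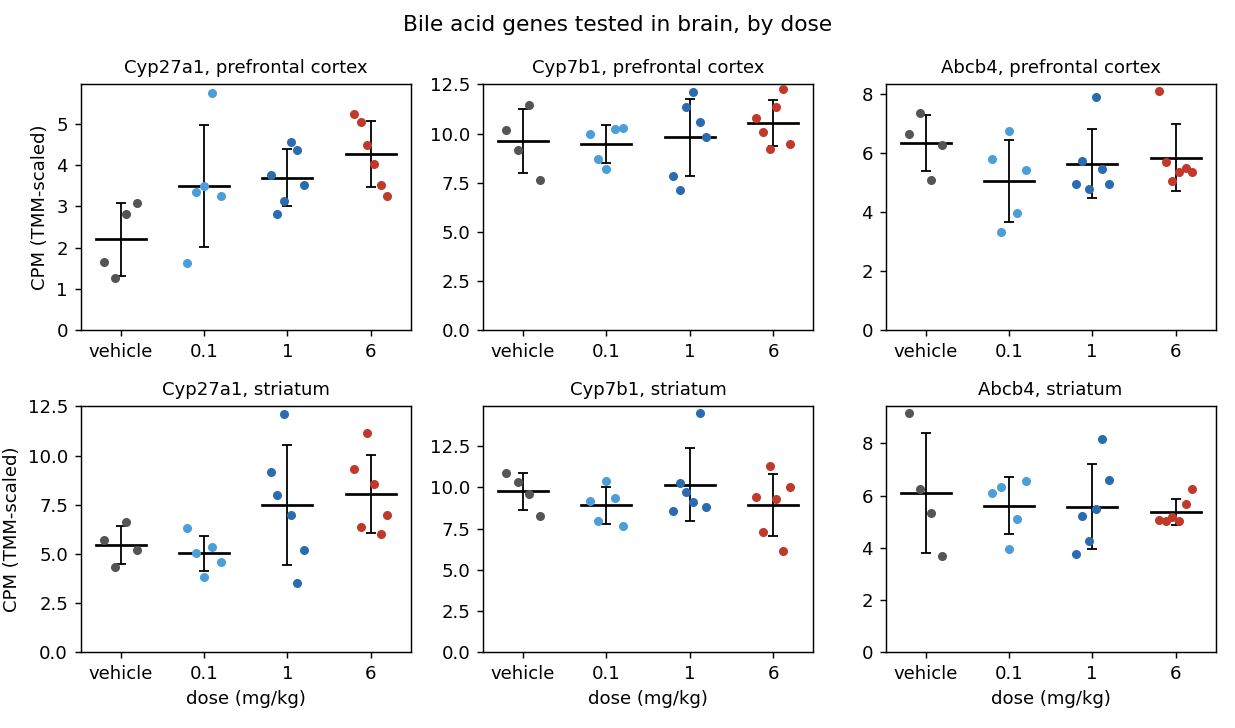
Levels of Cyp27a1, Cyp7b1 and Abcb4 in both brain regions in TMM-scaled CPM (vertical axes, from 0) by dose in mg/kg. Dots are libraries (n = 4, 5, 6 and 6), horizontal bars are means and whiskers are SD; Cyp27a1 in the prefrontal cortex runs from 1.26 to 3.08 CPM in vehicle and from 3.25 to 5.24 CPM at 6 mg/kg.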

How the data were processed

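RNA-seq counts per gene, deposited by the authors as 1 table per tissue with Entrez identifiers, were used as given. FastQC, HISAT2 and the build mm10 are named per the submitters' processing notes; the counting tool, its annotation and its strand setting are not given in the sources used here. The protocol in the labels names poly(A) capture or rRNA removal without saying which, and describes brain tissue for liver samples too. The smallest total of any listed gene was 10 counts. Libraries were grouped by the treatment label. Replicates of a group all differed by more than sampling noise (chi-square per degree of freedom at least 2.94, genes of 20 counts or more).

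For each tissue, genes passing filterByExpr were fitted over all dose groups with edgeR 4.0.16 (R 4.3.3; TMM scaling, robust quasi-likelihood F-test, Benjamini-Hochberg adjustment over all genes tested, threshold 0.05). SE is the absolute log2 fold change over the square root of F, intervals are 95%, and the dose slope is per rank step. A prior count of 2 entered log2 CPM. The fit was also run on simulated counts with known changes, whose outcome is not given here. Correlations used 100000 permutations (scipy 1.17.1). Alternatives were DESeq2 1.42.0, median-ratio scaling, other filters, 2 groups alone, a slope over mg/kg, the 0.1 mg/kg group as reference, the clock index as a covariate, and leaving out libraries. GENCODE vM21 gave lengths, and no other gene's exons overlapped those of the 10 genes.

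The 10 genes and all lists were chosen with earlier results of these data known. Beyond the 10 genes, the text names at most 4 genes a list by smallest p among those passing in liver at 6 mg/kg or over dose rank, plus Nr1h4, Mafg, Dbp and Arntl, and the 3 genes most like Cyp7a1, Cyp8b1 and Nr0b2.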

Additional observations from a re-analysis of the deposited data

Results flagged for a closer look

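Single libraries stood far from the rest of their group in 6 of the 68 groups of 4 to 6 libraries checked for the 10 genes and the liver clock index. Chance alone would give about 3.4 (about 1 in 20 groups). In the vehicle livers, animal 3 held the most Cyp7b1, at 21.98 CPM against 15.59 to 16.08 CPM in the others, and the least Slc27a5, at 776.3 CPM against 822.1 to 829.0 CPM. That animal also had the lowest clock index. In the livers at 1 mg/kg, animal 41 held 40.41 CPM of Klb against 8.412 to 16.68 CPM. In the prefrontal cortex, Abcb4 was high in animal 46 at 1 mg/kg (7.902 CPM against 4.793 to 5.738) and in animal 52 at 6 mg/kg (8.114 CPM against 5.056 to 5.712). In the striatum at 1 mg/kg, animal 48 held 14.54 CPM of Cyp7b1 against 8.588 to 10.26 CPM.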

How the results depend on the processing

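No paired analysis was possible because the dose groups compared within a tissue share no animal numbers. Of 866 alternative values of the 10 genes, 781 kept direction and side of the threshold, 72 turned direction, 11 lost and 2 gained a call; the cause was not tested. Leaving out vehicle animals 3 and 4 was chosen after the data were seen. Low counts limit the brain values: the 5 or 6 genes not tested there had at most 10 counts in any library, with library totals of 8.28 to 12.14 M against 7.38 to 10.2 M in liver.

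Genes called in liver at 6 mg/kg numbered 363, and 1138 with DESeq2, 241 unfiltered, 13 with 2 groups alone, 5 against 0.1 mg/kg, 0 with the clock covariate (edgeR, 471 at unadjusted p under 0.05), 0 without vehicle animals 3 and 4 (edgeR, 1290 unadjusted) and 3 to 1302 with 1 library left out (11 without vehicle animal 3, 3 without 4, 60 without animal 58, 1029 without 55, 1302 without 56). Of the 10 genes, 1 was called there with DESeq2 (Baat) and 0 to 1 with 1 library left out. At 1 mg/kg (0) there were 24 with DESeq2, 1 with 2 groups alone and 0 to 3 with 1 library left out (edgeR, 603 to 1076 unadjusted where 0). At 0.1 mg/kg (2) there were 12 with DESeq2, 0 with the clock covariate (edgeR, 187 unadjusted), 0 without vehicle animals 3 and 4 (217 unadjusted) and 0 to 2 with 1 library left out (332 to 670 unadjusted). Over dose rank (624) there were 1301 with DESeq2, 414 unfiltered, 3 with the clock covariate, 8 without vehicle animals 3 and 4, and 79 to 1317 with 1 library left out; the count among the 10 genes (1) was 0 over mg/kg, with the clock covariate and without vehicle animals 3 and 4, and 0 to 1 with 1 library left out. At 6 mg/kg in brain (0 in both) DESeq2 called 25 in prefrontal cortex and 31 in striatum, and with 1 library left out edgeR called 0 to 1 (926 to 1527 unadjusted) and 0 (1539 to 2622 unadjusted); without vehicle animals 3 and 4 it called 0 in both (1243 and 1273 unadjusted).

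Log2 values that turned direction were these. With the clock covariate: at 6 mg/kg Cyp7a1 0.0173, Cyp27a1 0.15, Cyp7b1 0.33, Fgfr4 0.31, Klb 0.80 and Arntl 0.53; at 1 mg/kg Cyp7a1 0.27, Slc27a5 0.31, Fgfr4 0.17 and Klb 0.86; at 0.1 mg/kg Cyp7a1 0.18, Cyp27a1 0.10, Slc27a5 0.23, Abcb4 0.12 and Klb 0.47; in slope Fgfr4 0.14, Cyp27a1 0.0423, Klb 0.22 and Arntl 0.0395. Without vehicle animals 3 and 4: Cyp7a1 0.0385 and Fgfr4 0.17 at 6 mg/kg, Cyp7a1 0.35 and Fgfr4 0.0504 at 1 mg/kg, Cyp7a1 0.35, Baat 0.0174 and Abcb4 0.24 at 0.1 mg/kg, slopes of Fgfr4 0.0833 and Klb 0.0016, and Abcb4 0.0486 in prefrontal cortex and 0.25 in striatum at 6 mg/kg. Against 0.1 mg/kg, the 6 mg/kg values were Cyp8b1 0.14, Cyp27a1 0.0091, Nr0b2 0.29, Fgfr4 0.26 and Klb 0.15. Slc27a5 at 1 mg/kg was 0.0004 with DESeq2 and median-ratio scaling. The Fgfr4 slope was 0.0013 with both, 0.0009 with a mean of at least 10 counts and 0.0161 over mg/kg, where that of Cyp27a1 was 0.0091.

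With 1 library left out, ranges that crossed 0 were, at 0.1 mg/kg, Abcb4 -0.29 to 0.17, Baat -0.0784 to 0.017, Cyp27a1 -0.12 to 0.0026, Cyp7a1 -0.79 to 0.0047 and Slc27a5 -0.11 to 0.0171; at 1 mg/kg, Cyp7a1 -0.79 to 0.0095, Nr0b2 -0.27 to 0.0278 and Slc27a5 -0.0825 to 0.11; at 6 mg/kg, Cyp27a1 -0.11 to 0.0553 and Fgfr4 -0.20 to 0.0165; in slope, Fgfr4 -0.0455 to 0.0341; and in striatum, Abcb4 -0.37 to 0.0732. Ranges of pairwise liver values that kept their sign but moved by over 1.5 times were, at 6 mg/kg, Cyp7a1 -1.34 to -0.31, Klb -0.71 to -0.31 (without animal 55 and vehicle animal 3), Cyp7b1 -0.33 to -0.0411 (animals 55 and 52) and Nr1h4 0.27 to 0.57; at 1 mg/kg, Klb -0.79 to -0.17 (animal 41 and vehicle animal 3), Cyp7b1 0.0908 to 0.31 (animal 41 and vehicle animal 3), Cyp27a1 -0.37 to -0.11 (the latter without animal 46), Fgfr4 -0.28 to -0.0989 (animal 41 and vehicle animal 3) and Abcb4 0.25 to 0.55 (the latter without vehicle animal 4); at 0.1 mg/kg, Nr0b2 -1.25 to -0.59 and Cyp7b1 0.0465 to 0.29 (animal 23 and vehicle animal 3). Of 19 calls of the other named genes, 14 held unfiltered, 4 of 11 slopes held over mg/kg, and of 8 calls at 6 mg/kg 0 held with 2 groups alone (edgeR adjusted p 0.0505 to 0.101) or against 0.1 mg/kg (0.198 to 0.847).

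Among the pairs, r for Nr0b2 and Cyp7a1 was 0.05 without centring on dose group; without the 2 farthest libraries r was -0.02 for Nr0b2 and Cyp8b1 and 0.05 for the clock index and Cyp7a1. Mafg and Cyp8b1 without centring had r -0.53 (permutation p 0.0156, adjusted 0.0937).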
